A study of Mus musculus with 6 samples.

Results

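The Slc25 genes encode the mitochondrial carrier family, and 40 of the 14005 genes listed for these macrophages have a symbol of the form Slc25a. Carrier relatives under other names, such as Ucp2, are treated apart, and the family below means these 40 genes. The members are the listed genes whose symbol starts with Slc25a, pseudogene names left out. The GENCODE M21 annotation of the mouse holds 47 such genes, and the other 7 (Slc25a2, Slc25a21, Slc25a31, Slc25a34, Slc25a41, Slc25a48 and Slc25a54) were not analysed here. The libraries are polyA RNA-seq of BMDM, bone marrow-derived macrophages, which are primary mouse cells grown out from marrow, with 3 libraries in each of 2 groups. The Txn1 KO group combines the Txn1 allele Txn1tm1.1Ees/J with the Cre allele B6.129P2-Lyz2tm1(cre)lfo/J. That Cre recombinase sits in Lyz2, a gene active in macrophages and granulocytes, and acts in cells that use this gene. The control group is wild type. Both groups are given as C57BL/6J by strain background and as pooled male and female, with no age. The purpose given for the study is the effect of losing thioredoxin-1, the cytosolic disulfide reductase that Txn1 encodes, on genes of the NLRP1 inflammasome.

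Mitochondrial carriers are small proteins of the inner mitochondrial membrane, built of repeated pairs of membrane-spanning helices, that exchange nucleotides, phosphate, organic acids, amino acids and cofactors between the matrix and the cytosol. They are made in the cytosol and imported without a cleaved presequence in most cases. In macrophages, the citrate carrier and the malate-aspartate exchange are best known for feeding cytosolic acetyl-CoA and redox balance. The glutathione carrier links the family to the thiol systems in which thioredoxin takes part.

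Whole reads recovered from the deposited normalized counts summed to between 22508616 and 31127228 in Txn1 KO libraries and to between 29716640 and 38726953 in wild-type libraries. Txn1 had 12695, 11963 and 12390 normalized counts in Txn1 KO libraries, against 13176, 12155 and 12409 in wild-type libraries (log2 difference -0.03, SE 0.037, adjusted p = 0.686). That value sums the whole gene and the deleted part is not named, so it checks nothing about the allele. Lyz2, which holds the Cre, had 4327, 3251 and 1775 normalized counts in Txn1 KO libraries and 361315, 363625 and 368284 in wild-type libraries, so the knock-in follows the group labels. Since a Cre-only library was not analysed here, effects of the Cre insertion and of the Txn1 allele cannot be told apart. Txn1 KO library 3 and wild-type library 1 stood apart on the second principal component and carried liver transcripts, with Alb (albumin) at 580.0 and 642.9 normalized counts and at most 0.838 in the other 4. Of the stromal markers, 5 of 6 were lower in Txn1 KO, their sum lying between 1056 and 1844 normalized counts in Txn1 KO and between 2147 and 2452 in wild type. The macrophage markers summed to between 127316 and 128387 in Txn1 KO and to between 127042 and 129927 in wild type. Within that list 3 of 7 rows were higher, Mertk (log2 0.64) and both rows of Itgam (0.48 and 1.68), and 2 were lower, Cd14 (-0.47) and Cd68 (-0.12). None of the 7 erythroid and 4 lymphocyte markers is listed. Of the neutrophil markers, 2 of 5 were lower in Txn1 KO, with a sum between 255.7 and 296.8 normalized counts in Txn1 KO and between 291.4 and 316.1 in wild type. The others were not called, Mpo (log2 0.76) and S100a8 (0.16) going the other way and Ltf (-1.02) the same way. Mki67, a marker of cycling cells, was the 1 higher gene of 7 in its list, whose sum lay between 2132 and 2465 in Txn1 KO and between 2036 and 2231 in wild type. The others in that list were not called, and of them Mcm5 alone had a negative difference (log2 -0.23). Xist, transcribed from the inactive X chromosome, was higher in Txn1 KO, and the Y-linked Eif2s3y was lower, with values given below beside Slc25a5. The part of any of these in the results on carriers was not tested.

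As a family the carriers were nearly level between the groups, with 10 of the 40 members changed by small amounts. In Txn1 KO macrophages 3 members rose (Slc25a12, Slc25a44 and Slc25a26) and 7 fell, among them Slc25a5, Slc25a1, Slc25a39, Slc25a22, Slc25a25 and Slc25a23. The largest rise was 0.28 and the largest fall -0.38 on the log2 scale. These are calls of limma on log2(normalized count + 1) at an adjusted p under 0.05 over all 13977 genes tested, and all 40 members were tested. The called share was 25.0% of members, near the background of 21.5% of all genes. By direction, 7.5% of members rose, against 11.5% of all genes, and 17.5% fell, against 9.97% of all genes. In 15 members (37.5%) the 3 Txn1 KO and 3 wild-type libraries did not overlap, which is close to the 36.2% found over all genes. The median log2 difference over the members was -0.0048, beside -0.0049 over all genes. Sizes were modest too, with a median absolute log2 difference of 0.0895 over the members, 0.126 over all genes and 0.279 over called genes. A change of at least 2-fold together with a call was found in 311 genes, or 2.22% of all, and the largest member difference of either sign, that of Slc25a27 (0.42), was not called. The summed level of the 40 members was 60928, 60013 and 60098 normalized counts in Txn1 KO libraries, against 62069, 61351 and 62404 in wild-type libraries. In whole-culture RNA, fewer cells of a type and less RNA per cell cannot be told apart. Nothing in the labels says that replicates came from separate animals, so each p-value rests on a spread among libraries that may be technical only.

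For 26 of the 30 members that were not called, the 95% interval of the difference stayed within 1.5-fold in either direction, and for 17 it stayed within 1.2-fold. The 4 with wider intervals, Slc25a18, Slc25a27, Slc25a29 and Slc25a47, were among the lowest members, and differences up to those sizes were not detectable at this depth. The count of called members depended on single libraries, as did the share of all genes called. Without Txn1 KO library 2, 4 members (10%) and 18.1% of all genes were called, and without wild-type library 2, 4 members (10%) and 17.5%. Without wild-type library 3 the values were 5 members (12.5%) and 15% of all genes, and without wild-type library 1 they were 6 members (15%) and 18.3%. Leaving out Txn1 KO library 1 left 7 members (17.5%) and 17.6% of all genes, and leaving out Txn1 KO library 3 left 8 members (20%) and 20.2%. Without Txn1 KO library 3 and wild-type library 1, both with liver transcripts, 9 members (22.5%) and 21.1% of all genes were called. Of these 9 members, 7 were among the 10 called with all libraries. Those 10 kept their direction in each of the 17 alternatives run. Their groups did not overlap, so leaving out libraries could not reverse them, and the kept direction is no support. Slc25a39 alone was called in all 17.

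Within the family, levels spread over a 446-fold range in wild type when counts are divided by the exon length of each gene. Slc25a5 was highest, at 3459 normalized counts per kb in Txn1 KO and 3847 in wild type. Next came Slc25a4 (2430 in Txn1 KO and 2455 in wild type), Slc25a3 (2388 and 2376), Slc25a11 (1586 and 1664), Slc25a1 (1501 and 1663) and Slc25a39 (1456 and 1607), all per kb with Txn1 KO first. The 5 highest members held 60.2% of the summed level per kb of the family in Txn1 KO and 61.1% in wild type. These are the carriers of adenine nucleotides, phosphate, 2-oxoglutarate and citrate. At the low end stood Slc25a47, at 8.42 normalized counts per kb in Txn1 KO and 8.63 in wild type, a gene known for expression in liver. Slc25a47 had 24.2 normalized counts in Txn1 KO library 3 and 21.4 in wild-type library 1, inside the range of 20.1 to 35.7 of the other 4 libraries. Of the 39 pairs of neighbours in this order, 30 overlapped over the 6 libraries, so the order is firm only across larger steps. Called falls ran from Slc25a5, the highest, to Slc25a23, at 34.7 per kb in Txn1 KO and 45.3 in wild type, and no member lower than Slc25a23 was called. Called rises lay between, at rank 11 (Slc25a44), 18 (Slc25a12) and 29 (Slc25a26) by level. Of the 10 highest members, 0 were called higher and 3 lower.

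**Figure D1:**
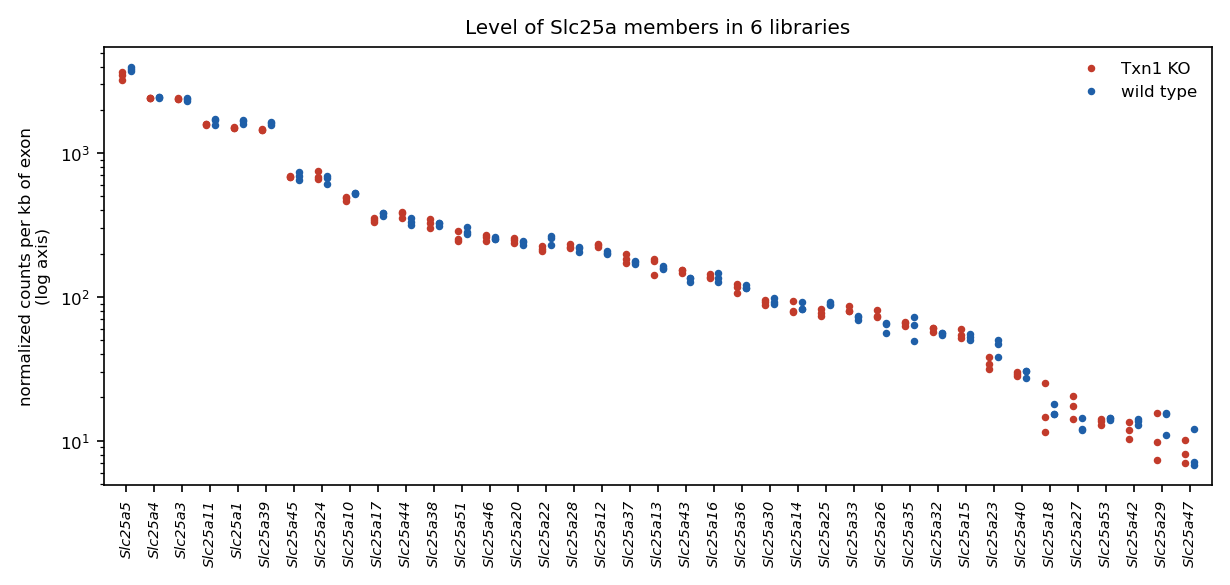
Level of 39 Slc25a members in every library, in normalized counts per kb of exon on a log axis, ordered by level, with Txn1 KO libraries as red points left of wild-type libraries as blue points. The members run over a 446-fold range in wild type, and the red and blue points of a member lie close together relative to that range.

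**Figure D2:**
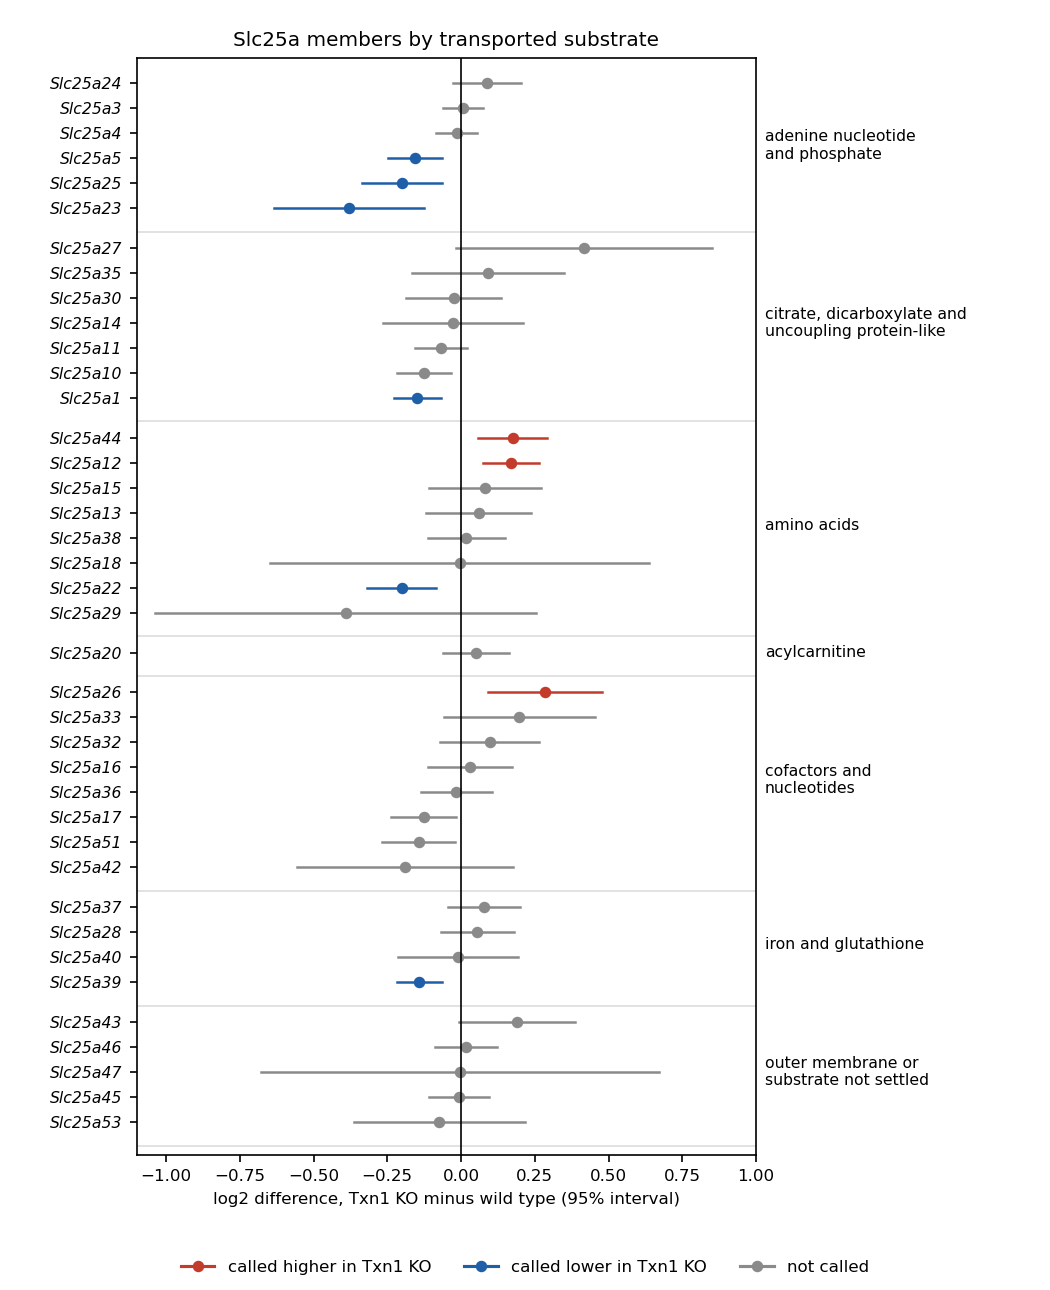
Log2 difference of 39 Slc25a members, Txn1 KO minus wild type, with its 95% interval, grouped by transported substrate, red where called higher, blue where called lower and grey where not called. Called differences lie between -0.38 and 0.28, and the widest intervals belong to members with few reads such as Slc25a29 and Slc25a47.

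The carriers of adenine nucleotides and phosphate hold the most abundant members, and 3 of the 6 listed fell in Txn1 KO macrophages while 3 were not called. Over all genes, 9.97% were called lower and 11.5% higher. With so few genes in a role, nothing particular to this or the following roles is read from such counts. Slc25a5 encodes the ADP/ATP carrier ANT2 (ENSMUSG00000016319, chromosome X, 36795651 to 36798807, plus strand, GRCm38). It had 6007, 5764 and 5309 normalized counts in Txn1 KO libraries, against 6287, 6169 and 6542 in wild-type libraries. Every Txn1 KO library lay below every wild-type library, a mean difference of -10.1% (log2 -0.15, SE 0.043, adjusted p = 0.0158). The call was lost without Txn1 KO library 3 (adjusted p = 0.0587) and without wild-type library 3 (adjusted p = 0.0997). The mouse genome holds processed copies of this gene, and how reads shared with them were counted is not given. Slc25a5 is X-linked, and Xist, transcribed from the inactive X chromosome, was higher in Txn1 KO (4813, 4711 and 6246 normalized counts, against 4143, 4617 and 4059 in wild type), while the Y-linked Eif2s3y was lower (573.8, 531.0 and 555.8 in Txn1 KO, against 1053, 1064 and 1143 in wild type). Those values move with the groups, so they bear on the comparison of every member. Their part in the result on Slc25a5 or on any other member was not tested.

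Slc25a4, the paralogous carrier ANT1 best known from heart and muscle, had 5714, 5720 and 5722 normalized counts in Txn1 KO libraries and 5815, 5803 and 5712 in wild-type libraries. The groups overlapped, and the log2 difference was -0.01 (95% interval -0.08 to 0.06). Per kb of exon, the ratio of Slc25a4 to Slc25a5 was 0.665, 0.694 and 0.754 in Txn1 KO libraries, against 0.647, 0.658 and 0.611 in wild-type libraries, with no overlap. This ratio was not tested on its own. Slc25a3 encodes the phosphate carrier, which supplies ATP synthase with phosphate, and had 13244, 13131 and 13391 normalized counts in Txn1 KO libraries and 13496, 12856 and 13211 in wild-type libraries (log2 0.01, 95% interval -0.06 to 0.08).

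The calcium-regulated ATP-Mg/phosphate carriers set the size of the matrix adenine nucleotide pool. Slc25a25 (ENSMUSG00000026819, chromosome 2, 32414487 to 32451445, minus strand) had 649, 579 and 607 normalized counts in Txn1 KO libraries, against 697, 690 and 720 in wild-type libraries, without overlap. The log2 difference was -0.20 (SE 0.064, adjusted p = 0.0335). Slc25a23 (ENSMUSG00000046329, chromosome 17, 57043711 to 57059863, minus strand) had 202, 167 and 182 normalized counts in Txn1 KO libraries, against 267, 249 and 204 in wild-type libraries. Its fall was the largest called in the family, at -23.5% (log2 -0.38, SE 0.121, adjusted p = 0.0324), although Txn1 KO library 1 came within a few counts of wild-type library 3. Slc25a24, the paralogue with the most reads of these, had 2328, 2272 and 2569 normalized counts in Txn1 KO libraries and 2082, 2299 and 2365 in wild-type libraries (log2 0.09, adjusted p = 0.293). The call of Slc25a25 held in 7 of the 17 alternatives, the fewest among the called members, and that of Slc25a23 held in 12. That of Slc25a25 was lost without Txn1 KO library 2 (adjusted p = 0.135) or 3 (0.0564), without wild-type library 1 (0.0656), 2 (0.0626) or 3 (0.132), with DESeq2 (0.0631) and without both libraries with liver transcripts (0.0629). That of Slc25a23 was lost without Txn1 KO library 2 (adjusted p = 0.123), without wild-type library 1 (0.149) or 2 (0.113) and without both libraries with liver transcripts (0.149).

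Among the carriers of citrate, dicarboxylates and the uncoupling protein-like members, 1 of 7 fell and 6 were not called. Slc25a1 encodes the citrate carrier, which exports citrate for the cytosolic synthesis of acetyl-CoA (ENSMUSG00000003528, chromosome 16, 17925223 to 17928219, minus strand). It had 3255, 3264 and 3223 normalized counts in Txn1 KO libraries, against 3682, 3471 and 3646 in wild-type libraries. The Txn1 KO libraries lay close together and all below wild type (log2 -0.15, SE 0.038, adjusted p = 0.00937). Without wild-type library 3 the adjusted p was 0.0533. Slc25a10, the dicarboxylate carrier, had 1715, 1674 and 1608 normalized counts in Txn1 KO libraries, against 1822, 1824 and 1804 in wild-type libraries. The groups did not overlap, yet the log2 difference of -0.13 narrowly missed the threshold (adjusted p = 0.0524). Slc25a10 passed in 3 of the 17 alternatives and in no other. These were edgeR (adjusted p = 0.044), a filter at a mean of 50 (0.044) and TMM scaling (0.0497). With 1 library left out, its adjusted p lay between 0.0566 and 0.15. The authors' deposited table gives an adjusted p of 0.0897. Slc25a11, the 2-oxoglutarate/malate carrier of the malate-aspartate shuttle, had a log2 difference of -0.07 (95% interval -0.16 to 0.02) and overlapping groups. Of the uncoupling protein-like members, Slc25a14 (log2 -0.03), Slc25a30 (log2 -0.03) and Slc25a27 (log2 0.42, 95% interval -0.02 to 0.85) were not called, nor was Slc25a35 (log2 0.09), whose substrate is not settled. Slc25a35 shares 31.3% of its exon length with Rangrf on the opposite strand, and since the use of strand in counting is not given, reads of both genes cannot be told apart.

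Of the 8 listed amino acid carriers, 2 rose, 1 fell and 5 were not called. Slc25a12 encodes the aspartate-glutamate carrier aralar of the malate-aspartate shuttle (ENSMUSG00000027010, chromosome 2, 71271063 to 71367749, minus strand). It had 1690, 1724 and 1630 normalized counts in Txn1 KO libraries, against 1489, 1470 and 1522 in wild-type libraries. All Txn1 KO libraries lay above wild type, by 12.6% on average (log2 0.17, SE 0.045, adjusted p = 0.0116), and without Txn1 KO library 2 the adjusted p was 0.0547. Slc25a13, which encodes citrin, the other aspartate-glutamate carrier, had 671, 699 and 540 normalized counts in Txn1 KO libraries and 591, 625 and 606 in wild-type libraries, spanning the wild-type range (log2 0.06, 95% interval -0.12 to 0.24).

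Slc25a44, a carrier of branched-chain amino acids (ENSMUSG00000050144, chromosome 3, 88410498 to 88425139, minus strand), had 1402, 1371 and 1264 normalized counts in Txn1 KO libraries, against 1140, 1178 and 1257 in wild-type libraries. Txn1 KO library 3 and wild-type library 3 differed by only a few counts, and the mean difference was 12.9% (log2 0.17, SE 0.055, adjusted p = 0.0314). The call was lost without Txn1 KO library 1 (adjusted p = 0.133) or 2 (0.103) and without wild-type library 1 (0.116) or 2 (0.0894). Slc25a22, the main glutamate carrier (ENSMUSG00000019082, chromosome 7, 141429744 to 141437892, minus strand), went the other way. It had 1286, 1361 and 1257 normalized counts in Txn1 KO libraries, against 1383, 1531 and 1578 in wild-type libraries (log2 -0.20, SE 0.056, adjusted p = 0.0151). The adjusted p was 0.0522 without Txn1 KO library 1, 0.0632 without wild-type library 2 and 0.103 without wild-type library 3. Its paralogue Slc25a18 was near the low end, with 22.0, 27.7 and 48.4 normalized counts in Txn1 KO libraries and 29.5, 29.5 and 34.4 in wild-type libraries. Slc25a38, which carries glycine for heme synthesis (log2 0.02), Slc25a15, the ornithine carrier (log2 0.08), and Slc25a29, a carrier of basic amino acids (log2 -0.39, 95% interval -1.04 to 0.25), were not called.

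Slc25a20, the carnitine-acylcarnitine carrier that brings fatty acids to beta-oxidation, was not called. It had 1243, 1208 and 1141 normalized counts in Txn1 KO libraries and 1186, 1107 and 1170 in wild-type libraries (log2 0.05, 95% interval -0.06 to 0.16), and the groups overlapped.

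Among the carriers of cofactors and nucleotides, Slc25a26 rose and 7 members were not called. Slc25a26 imports S-adenosylmethionine, the methyl donor (ENSMUSG00000045100, chromosome 6, 94500331 to 94604672, plus strand). It had 392, 357 and 347 normalized counts in Txn1 KO libraries, against 317, 271 and 312 in wild-type libraries. Its rise of 21.8% was the largest called in the family (log2 0.28, SE 0.091, adjusted p = 0.0331). The call was lost without Txn1 KO library 1 (adjusted p = 0.135) or 2 (0.0624), without wild-type library 2 (0.152) or 3 (0.0614) and with DESeq2 (0.0551).

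Slc25a51, the carrier of NAD+, had 1400, 1359 and 1575 normalized counts in Txn1 KO libraries and 1516, 1700 and 1569 in wild-type libraries. Txn1 KO library 3 overlapped wild type and the log2 difference of -0.14 was not called (adjusted p = 0.0986). Without that library it was -0.21 (adjusted p = 0.00961), and without both libraries with liver transcripts it was -0.24 (adjusted p = 0.00129). Only these 2 of the 17 alternatives called it, and with other single libraries left out its adjusted p reached 0.35. Slc25a51 lies on chromosome 4, which also carries Txn1. Slc25a17, a carrier of coenzyme A and related nucleotides in peroxisomes, had 951, 976 and 1012 normalized counts in Txn1 KO libraries, against 1035, 1088 and 1085 in wild-type libraries. Those groups did not overlap, and the log2 difference of -0.13 had an adjusted p of 0.102, or 0.041 without both libraries with liver transcripts. That was 1 of the 17 alternatives and no other called it. With 1 library left out, its adjusted p lay between 0.0706 and 0.264. The pyrimidine nucleotide carriers Slc25a33 and Slc25a36 had log2 differences of 0.20 (95% interval -0.06 to 0.45) and -0.02 (-0.14 to 0.11). The groups did not overlap in Slc25a33, which had 151, 151 and 164 normalized counts in Txn1 KO libraries, against 137, 138 and 131 in wild-type libraries. The folate and FAD carrier Slc25a32 (log2 0.10), Slc25a16 (log2 0.03) and the coenzyme A carrier Slc25a42 (log2 -0.19) were not called.

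Iron and glutathione carriers numbered 4, of which Slc25a39 fell and the other 3 were not called. Slc25a39 encodes the main importer of glutathione into mitochondria (ENSMUSG00000018677, chromosome 11, 102402985 to 102407946, minus strand). It had 4075, 3961 and 4004 normalized counts in Txn1 KO libraries, against 4522, 4441 and 4324 in wild-type libraries. The highest Txn1 KO library lay below the lowest wild-type library, and the mean difference was -9.39% (log2 -0.14, SE 0.036, adjusted p = 0.00861). Leaving out any 1 library kept the log2 difference between -0.16 and -0.13 and the adjusted p between 0.0141 and 0.039. The authors' deposited table gives a log2 fold change of -0.14 with an adjusted p of 0.00381 for Slc25a39. Its paralogue Slc25a40, which has a like role, had 238, 246 and 253 normalized counts in Txn1 KO libraries and 230, 256 and 256 in wild-type libraries (log2 -0.01, 95% interval -0.21 to 0.19). Per kb of exon, Slc25a39 was 52.2, 49.0 and 48.2 times as high as Slc25a40 in Txn1 KO libraries and 59.8, 52.7 and 51.4 times in wild-type libraries. The mitoferrins bring iron to the matrix for heme and iron-sulphur clusters. Slc25a37 (mitoferrin-1) had 1029, 1097 and 1191 normalized counts in Txn1 KO libraries and 1062, 1027 and 1051 in wild-type libraries (log2 0.08, adjusted p = 0.396). Slc25a28 (mitoferrin-2) had 879, 816 and 828 in Txn1 KO libraries and 834, 770 and 823 in wild-type libraries (log2 0.06, adjusted p = 0.575), with overlapping groups in both.

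The 5 members of the outer membrane or without a settled substrate were not called. Slc25a46, an outer membrane member linked to mitochondrial fusion and fission, had a log2 difference of 0.02 (95% interval -0.09 to 0.12), and Slc25a45 had one of -0.01 (-0.11 to 0.10). Slc25a43 had 260, 273 and 275 normalized counts in Txn1 KO libraries, against 227, 240 and 240 in wild-type libraries. These values did not overlap, and the log2 difference of 0.19 had an adjusted p of 0.167. The X-linked Slc25a53 had a log2 difference of -0.07 (95% interval -0.36 to 0.22).

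**Figure D3:**
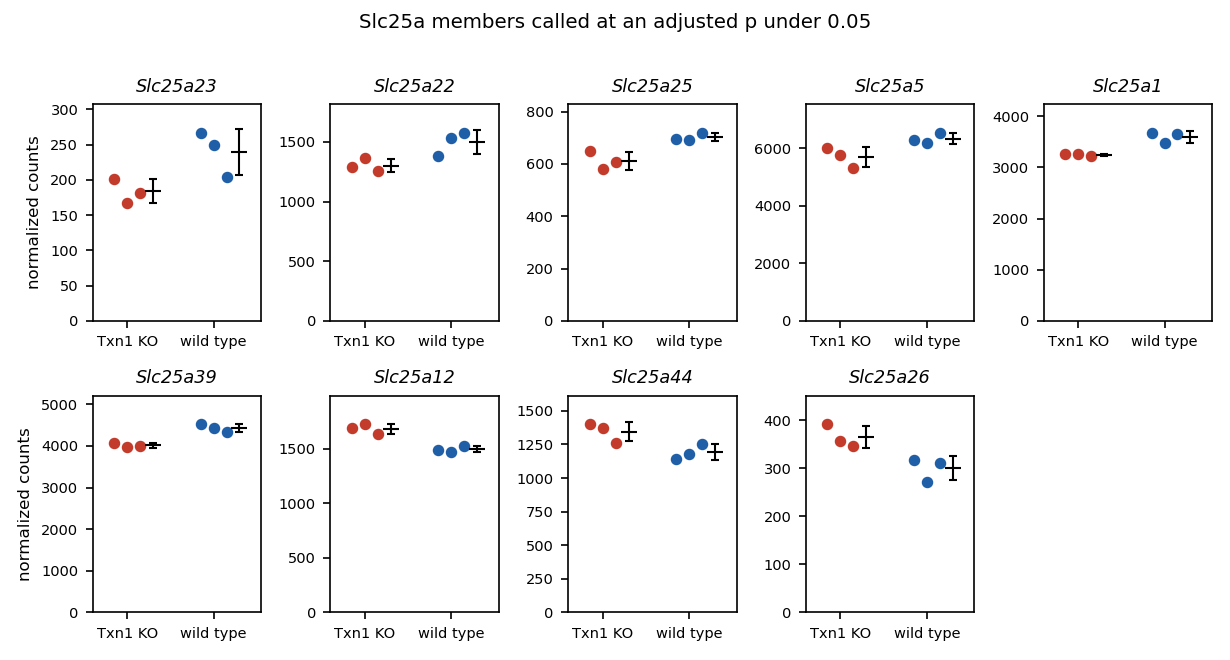
Normalized counts of 9 called Slc25a members in each library, Txn1 KO in red left of wild type in blue, with the mean and SD of 3 libraries beside the points. The groups do not overlap in any panel, and in Slc25a44 and Slc25a23 the nearest libraries of the groups almost touch.

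Promoter sequence is shown for both members with the smallest p and for the called rise with the smallest p, which are Slc25a39, Slc25a1 and Slc25a12. Each stretch is the 250 bases before a transcription start of RefSeq on GRCm38.p6, 5′ to 3′ on the minus strand, on which all 3 genes lie. Capitals mark matches on either strand to GGGCGG (SP1), CCAAT (NF-Y), CACGTG (an E-box), TGACNNNGC (the core of the NRF2 antioxidant response element), GCGCATGCG (NRF1) and CCGGAAG (ETS factors).
Slc25a39, chr11:102407518-102407767: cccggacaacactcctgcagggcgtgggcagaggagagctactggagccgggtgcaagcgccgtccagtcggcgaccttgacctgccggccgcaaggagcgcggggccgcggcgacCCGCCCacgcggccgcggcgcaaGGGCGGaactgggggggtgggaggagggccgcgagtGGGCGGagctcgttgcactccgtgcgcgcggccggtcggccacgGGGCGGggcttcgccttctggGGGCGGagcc
Slc25a1, chr16:17928220-17928469: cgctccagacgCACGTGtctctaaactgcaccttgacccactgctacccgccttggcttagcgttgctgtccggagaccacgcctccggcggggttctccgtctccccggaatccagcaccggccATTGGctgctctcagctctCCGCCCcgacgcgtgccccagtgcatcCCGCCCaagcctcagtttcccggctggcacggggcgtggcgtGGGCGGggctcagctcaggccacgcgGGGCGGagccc
Slc25a12, chr2:71367756-71368005: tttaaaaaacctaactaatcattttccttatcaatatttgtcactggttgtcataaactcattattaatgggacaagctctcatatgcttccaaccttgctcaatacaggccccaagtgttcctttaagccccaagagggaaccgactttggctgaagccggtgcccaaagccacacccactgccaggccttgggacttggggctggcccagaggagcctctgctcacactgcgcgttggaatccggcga
The Slc25a39 window held 5 matches, all to GGGCGG. In the Slc25a1 window GGGCGG was matched 4 times, CCAAT once and CACGTG once, and the Slc25a12 window had no match. Marked matches do not overlap each other, and a match describes letters only. For Slc25a39 the RefSeq start lies inside the span of the GENCODE gene, so the window overlaps that span.

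RefSeq windows were at hand for 31 of the 40 members. GGGCGG was in 72.5% of the 40 member windows and 32.7% of all 32851 windows of this length, CCAAT in 47.5% and 33.8%, TGACNNNGC in 22.5% and 10.2%, CACGTG in 17.5% and 6.02% and CCGGAAG in 12.5% and 6.91%. GCGCATGCG, present in 1.45% of all windows, was not in these letters of the member windows. The set of all windows was not limited to the listed genes, so nothing particular to carriers is read from these shares. By gene, with a match in any window counted, members that fell had GGGCGG in 6 of 6 and members not called in 16 of 24. In the same order, CCAAT was in 4 of 6 and 12 of 24. TGACNNNGC was in 3 of 6 (Slc25a5, Slc25a23 and Slc25a25) and 4 of 24. CACGTG was in 1 of 6 and 5 of 24, and CCGGAAG in 0 of 6 and 5 of 24. The 1 member that rose and had a window matched none of the motifs. These counts by gene are unlike the shares by window above. With so few members, no difference between these groups was tested.

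Carrier relatives under other names did not pass the test. Ucp2, the uncoupling protein of macrophages, had 25293, 27295 and 24857 normalized counts in Txn1 KO libraries and 25566, 22876 and 24248 in wild-type libraries (log2 0.09, adjusted p = 0.145). It passed in 2 of the 17 alternatives, without wild-type library 1 (adjusted p = 0.0391) and without both libraries with liver transcripts (adjusted p = 0.00137). With other single libraries left out, its adjusted p reached 0.502 and its log2 difference fell to 0.05. Mtch1 and Mtch2, outer membrane relatives, had log2 differences of -0.01 and -0.03. In these 3 genes, limma, edgeR and DESeq2 each called 0, and 1 was under an unadjusted p of 0.05.

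Enzymes of the malate-aspartate shuttle, of citrate export and of other linked steps were counted beside the called carriers. Of the 12 in this list, 4 fell (33.3%), beside 9.97% of all genes, and with so few genes nothing particular to the list is read from this. Acly, which cleaves exported citrate to acetyl-CoA, had 4086, 4376 and 3787 normalized counts in Txn1 KO libraries, against 5070, 4751 and 4780 in wild-type libraries (log2 -0.26, adjusted p = 7.49e-04). Glud1 (glutamate dehydrogenase, log2 -0.14, adjusted p = 0.00533), Pck2 (mitochondrial PEP carboxykinase, -0.23, 0.00908) and Got2 (mitochondrial aspartate aminotransferase, -0.20, 0.0266) were also lower. The log2 difference of Got2 was -0.10 without Txn1 KO library 3 (adjusted p = 0.0909) and -0.08 without both libraries with liver transcripts (0.183). Its call was also lost without wild-type library 1 (0.0876) or 3 (0.0907), and that of Pck2 without Txn1 KO library 1 (0.0604). The list had a median log2 difference of -0.0025 and the citrate carrier Slc25a1 had -0.15.

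In the iron-sulphur and heme list, 2 of 10 genes rose (20%, beside 11.5% of all genes) and the others were not called, so the called share was close to the 21.5% of all genes. Without both libraries with liver transcripts 4 of the 10 were called, beside 21.1% of all genes. Alas1, the first enzyme of heme synthesis, had 9678, 9504 and 9254 normalized counts in Txn1 KO libraries, against 6558, 6384 and 6756 in wild-type libraries (log2 0.53, adjusted p = 5.57e-09), and Fech, the last enzyme, had a log2 difference of 0.21 (adjusted p = 0.00748). The glycine carrier Slc25a38 and the mitoferrins, which serve the same route, were not called.

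Inner membrane transporters of other families had 2 of 19 genes higher (10.5%, beside 11.5% of all genes) and 4 lower (21.1%, beside 9.97%). Slc8b1, the sodium-calcium exchanger of mitochondria, had 5782, 5742 and 6118 normalized counts in Txn1 KO libraries, against 4697, 4592 and 4710 in wild-type libraries (log2 0.33, adjusted p = 3.30e-06). Mcur1, a regulator of the calcium uniporter, had a log2 difference of 0.19 (adjusted p = 0.0226), while Abcb8 (-0.28, 4.25e-04) and Sfxn2 (-0.34, 0.0159) fell, as did Abcb10 (-0.25, 0.0331). The count of 6 was between 2 and 5 when 1 library was left out, 4 with the statistics of the authors' deposited table and 3 without both libraries with liver transcripts. Mcur1 was lost without Txn1 KO library 1 (adjusted p = 0.072) or wild-type library 1 (log2 0.11, 0.107) and Sfxn2 without wild-type library 1 (0.058) or 2 (0.0948). Without both libraries with liver transcripts, Mcur1 had a log2 difference of 0.10 (adjusted p = 0.138) and Sfxn2 one of -0.28 (0.0732).

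Machinery that imports carrier precursors, from Tomm70a and Tomm40 to the small Timm chaperones and Timm22, had 16 genes tested, of which limma, edgeR and DESeq2 each called 0 and 2 were under an unadjusted p of 0.05. These 2 were Tomm40, the import pore (log2 0.12, adjusted p = 0.0881), and Tomm70a, a receptor for carrier precursors (log2 0.10). Tomm40 passed in 2 of the 17 alternatives, without wild-type library 1 (adjusted p = 0.0422) and without both libraries with liver transcripts (adjusted p = 0.0177). With other single libraries left out, its adjusted p reached 0.359. In the carnitine system, which works with Slc25a20, limma, edgeR and DESeq2 each called 0 of 6 genes and 0 were under an unadjusted p of 0.05. Cpt1a, which makes acylcarnitines at the outer membrane, had a log2 difference of -0.05, and Crot, the peroxisomal octanoyltransferase, had -0.12. Crot passed in 1 of the 17 alternatives, without Txn1 KO library 1 (adjusted p = 0.0388). With other single libraries left out, its adjusted p reached 0.436. Of the outer membrane channels, Vdac2 rose (log2 0.11, adjusted p = 0.0183) and 3 of 4 were not called. The call of Vdac2 was lost without Txn1 KO library 2 (adjusted p = 0.0668), wild-type library 2 (0.0729) or wild-type library 3 (0.0744). Of 6 genes of the mitochondrial folate pathway, served by Slc25a32, Shmt2 fell (log2 -0.17, adjusted p = 0.0405). That call was lost without Txn1 KO library 1 (adjusted p = 0.16), without wild-type library 1 (0.0917), 2 (0.0765) or 3 (0.119), without both libraries with liver transcripts (0.0636) and with DESeq2 (0.083). Of 9 regulators of mitochondrial biogenesis, Ppard rose (log2 0.19, adjusted p = 0.024). Its adjusted p was 0.077 without Txn1 KO library 2, 0.0917 without Txn1 KO library 3, 0.0768 without wild-type library 1 and 0.0665 without wild-type library 2, and without both libraries with liver transcripts its log2 difference was 0.12 (0.157). The median log2 difference of the 9 lists lay between -0.05 in the carnitine system and 0.06 among the regulators, with the median of all genes at -0.0049.

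**Figure D4:**
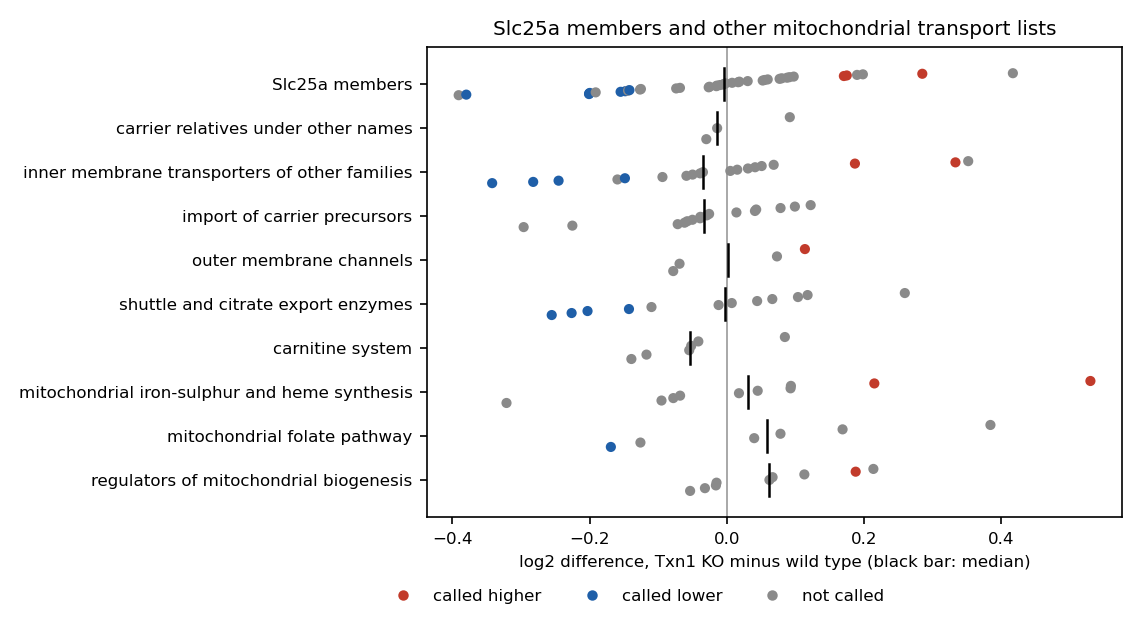
Log2 difference, Txn1 KO minus wild type, of each tested gene of the Slc25a family and of 9 other mitochondrial lists, with a black bar at each list's median, red for called higher, blue for called lower and grey for not called. The Slc25a family is centred at zero with called members between -0.38 and 0.28, and Alas1, at 0.53, lies farthest right.

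The 40 members lie on 18 chromosomes. Slc25a51 and Slc25a33 lie on chromosome 4 with Txn1, and Slc25a3 and Slc25a16 on chromosome 10 with Lyz2, and these 4 were not called. The other X-linked members, Slc25a43, Slc25a14 and Slc25a53, were not called either. Among called members, Slc25a5 alone sits on a chromosome with Txn1, Lyz2 or Xist. The part of position in any call was not tested. Exons of 14 annotated genes overlap those of 13 members, at 4.82% of the exon length in Slc25a25, 3.17% in Slc25a23 and 3.00% in Slc25a26 among the called ones. Reads in these stretches can belong to either gene.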

How the data were processed

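The deposited table lists 14005 mouse genes with one signal per library, which is the authors' read count divided by a size factor per library (normalized counts); every value came out as whole reads at a tolerance of 0.01. The log2 fold changes and p-values in the table were computed by the authors. The submitters' processing notes name STAR 2.5.2b, Trimmomatic 0.36, bcl2fastq 2.20, DESeq2 and the build GRCm38 (mm10). Read counting, its strand setting and the annotation are steps not given in the sources used here. One read was worth 0.777 to 1.35 normalized counts, so 3 reads, taken as the floor, were 2.33 to 4.04 and cover counting error only. Members had 18 to 16544 reads per library. Control columns, named only BMDM with a number, were taken as wild type, the other group in the labels.

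The difference Txn1 KO minus wild type was tested with limma 3.58.1 in R 4.3.3 (trended prior) on log2(normalized count + 1), a scale that shrinks differences of low genes. The test was two-sided with Benjamini-Hochberg adjustment over 13977 genes, after a filter at a mean of 10 normalized counts removed 28, and a call needs an adjusted p under 0.05. Intervals are at 95%. Alternatives were other pseudocounts, filters and thresholds, TMM scaling, edgeR 4.0.16 and DESeq2 1.42.0 on recovered reads, the authors' statistics, a replicate block and leaving out libraries. The scripts were tested on simulated data. Positions and exon lengths came from GENCODE M21 on GRCm38, promoters from RefSeq (GRCm38.p6). The members are named by role, except that 1 member and 1 gene of another list are not reported here by name. The other lists give up to 4 called genes each, by smallest p, or up to 2 where none is called. Abcb10, Mtch1, Timm22, Xist, Eif2s3y, Mki67, Mcm5, Mpo, S100a8, Ltf, Mertk, Itgam, Cd14 and Cd68 fall outside that rule. They were chosen after their values were seen. The members and lists were chosen with earlier results of these data known.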

Additional observations from a re-analysis of the deposited data

How the results depend on the processing

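Across 17 alternatives, the 10 called members kept their direction, which leaving out libraries could not reverse since their groups did not overlap. The number called depended on the libraries kept. With each of the 6 libraries left out in turn, 0 to 3 members were called higher and 3 to 6 lower. Over all genes, 1196 to 1513 were called higher and 891 to 1303 lower. At an adjusted p under 0.01, limma called 0 members higher (edgeR 1, DESeq2 0, and 3 at an unadjusted p under 0.05) and 2 lower, Slc25a1 and Slc25a39, beside 1024 genes higher and 809 lower. Other pseudocounts and no filter left the same 10 members called, and a filter at a mean of 50, TMM scaling and edgeR added Slc25a10. Both DESeq2 on the recovered reads and the authors' deposited statistics left 8, without Slc25a25 and Slc25a26. The replicate block called 2 members higher and 6 lower (1433 and 1242 over all genes) and lost Slc25a44 (adjusted p = 0.06) and Slc25a25 (0.0515). Same-numbered libraries had correlations of -0.268, 0.137 and -0.328, so no pairing by number was seen and the block is given here only. With 3 libraries a group, such values cannot settle whether the numbers pair the libraries. Median differences over all genes stayed between -0.0063 and -0.0039 under the scalings tried.

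Reversals were seen in 14 members, none of the 10 called, and in Mtch2. Slc25a18 turned to 0.0034 with a pseudocount of 5, 0.0510 with edgeR, 0.0529 with DESeq2 and 0.0531 in the authors' deposited table. Without both libraries with liver transcripts, Slc25a24 had -0.0201 and Slc25a14 had 0.0634. With 1 library left out, log2 differences ran over -0.0106 to 0.0244 in Slc25a3, -0.0127 to 0.1741 in Slc25a13, -0.1056 to 0.0317 in Slc25a14, -0.0220 to 0.0846 in Slc25a16, -0.3180 to 0.2333 in Slc25a18, -0.0550 to 0.0168 in Slc25a30, -0.0557 to 0.2108 in Slc25a35, -0.0572 to 0.0372 in Slc25a36, -0.0349 to 0.0719 in Slc25a38, -0.0610 to 0.0163 in Slc25a40, -0.0498 to 0.0394 in Slc25a45, -0.0158 to 0.0515 in Slc25a46, -0.1490 to 0.2504 in Slc25a47 and -0.0561 to 0.0104 in Mtch2. The cause was not tested. Slc25a18, Slc25a29 and Slc25a47 have no value with a filter at a mean of 50. With 3 libraries a group, members near 20 reads are bounded only loosely. Counts of called genes in the other lists moved by over 1.5 times in 29 of 153 cases.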
